A study of Homo sapiens with 24 samples.

Results

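SW1736 cells, a human thyroid cancer line, were profiled after 48 h in vemurafenib and set against the same line at 0 h, across all measured genes. The comparison holds 6 of the 24 arrays in the series: the 3 replicate arrays labelled SW1736 at 48 h and the 3 labelled SW1736 at 0 h. At 48 h the cells had been in 2 uM vemurafenib, and at 0 h they were untreated; both grew in RPMI medium with serum. Both groups carry BRAF V600E, per the labels, as does SKMEL28, the melanoma line of the other 12 arrays, which was sampled at the same times and dose. The arrays of SW1736 at 1 h and 6 h in the drug entered the estimate of the spread, and those at 6 h were also compared with 48 h. The series' design text writes the thyroid line's name as SW1726, and the labels' name is used here. The groups come from 1 cell line, and no label says whether the replicates were separate cultures, so the p-values measure the spread between these samples. Untreated cells kept for 48 h were not analysed here, so 48 h of drug and 48 h of further culture cannot be told apart.

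Vemurafenib binds the mutant BRAF kinase and blocks its signal to MEK and ERK. ERK drives transcription factors and cyclins that carry cells into S phase, and it also induces its own inhibitors, the Sprouty proteins and the dual specificity phosphatases. When ERK falls these inhibitors fall with it, and receptors upstream of RAS, among them the ERBB family, can then signal more strongly. The title of the study names the ERBB3 receptor, also called HER3, in BRAF mutant thyroid cancer.

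Levels are log2 normalized intensities of an Illumina bead array, with 18674 to 19781 of 47231 probes detected on the 48 h arrays and 18371 to 18917 on the 0 h arrays at a detection p under 0.05. A gene was read from 1 probe, so levels are compared between arrays and never between genes. The thyroid transcription factors PAX8 and FOXE1 were detected on all 6 arrays. The differentiated thyroid genes TG, TSHR, SLC5A5 and NKX2-1 did not pass the detection filter in this line. PTPRC, CD3E, PECAM1, VWF and HBB, markers of blood and vessel cells, did not pass it either, nor did the melanocyte genes MLANA, TYR and SOX10. Of the 14 blood and vessel markers on the array 3 did pass, CD14 and CD68 on all 6 arrays and MS4A1 on 2 of them, as did 4 of 11 melanocyte genes, with MITF and RAB27A on all 6. CD14 rose by 1.98.

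Of 11711 genes tested, 3479 differed between 48 h and 0 h at an adjusted p under 0.05 (limma, Benjamini-Hochberg), which is 29.7% of them. At 48 h 1846 genes were higher, 15.8%, and 1633 were lower, 13.9%. A difference of at least 2-fold was seen for 832 of the higher and 752 of the lower genes. The split depends on scaling: with each array scaled to its median in place of quantile normalization, 1209 genes were higher and 1817 lower, and the median change of all genes moved to -0.0739 against 0.0275 on the log2 scale. Sizes depend on background correction: without it, 42 of the 143 named changes past the threshold were smaller by over 1.5 times. The 6 h arrays had shown fewer changes, with 205 genes higher than at 0 h, 1.75% of those tested, and 303 lower, 2.59%. Against 6 h, 2535 genes differed at 48 h, 21.6%, of which 1403 were higher, 12%, and 1132 were lower, 9.67%.

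The largest rises were those of SLPI and CFB. SLPI, which encodes a secreted inhibitor of leukocyte proteases, had levels of 11.56, 11.40 and 11.61 at 48 h, against 5.37, 5.77 and 6.55 at 0 h. That is 49.4-fold higher (log2 change 5.63 ± 0.25, SE, adjusted p = 1.12e-09). CFB, complement factor B and the protease of the alternative pathway, stood at 13.14, 13.07 and 13.01 at 48 h and at 7.63, 7.76 and 8.12 at 0 h, a rise of 37.7-fold (5.24 ± 0.21, adjusted p = 4.72e-10). For both genes the lowest 48 h array lay far above the highest 0 h array. C1S and C1R, the proteases of the first complement component, rose 18.4-fold and 11.1-fold. C1S had levels of 11.22, 11.54 and 11.32 at 48 h, against 6.91, 7.14 and 7.44 at 0 h.

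Among the other largest rises, BGN encodes biglycan, a small matrix proteoglycan, with levels of 11.84, 12.03 and 11.69 at 48 h, against 7.07, 7.93 and 7.49 at 0 h (4.36 ± 0.23, adjusted p = 3.28e-09). CLIC3, of the intracellular chloride channel family, rose by 4.93 on the log2 scale, and RARRES1, a retinoid-induced gene, by 4.84. KCNJ16, an inward rectifier potassium channel subunit, was higher by 4.89 by the probe used, while its second probe, detected on 4 of the 6 arrays, changed by -0.02. PLEKHS1 rose by 3.97, PAPLN, which encodes a matrix glycoprotein, by 3.96, and the histone gene H2AC6 by 3.75. The last of the 12 were PLAAT4, a phospholipase and acyltransferase gene, at 3.61, and NNMT, nicotinamide N-methyltransferase, at 3.51. The 12 were picked from genes past the threshold, detected in both groups, whose groups do not overlap, so the lack of overlap is no result. Groups did not overlap in 42.4% of all genes tested. The adjusted p-values of the 12 lay between 4.72e-10 and 2.74e-08.

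Several genes were detected on all 3 arrays of one group and on none of the other, so that only a lower limit of the fold can be given. Higher at 48 h were SGSH, a lysosomal heparan sulfatase, at least 6.19-fold (measured means 7.97 at 48 h and 4.84 at 0 h), and BPIFB1, a secreted epithelial defence protein, at least 5.99-fold (7.93 and 5.14). TENT5A was at least 5.07-fold higher (7.69 and 5.04), and VTN, the adhesion protein vitronectin, at least 3.93-fold (7.32 and 4.46). Lower at 48 h were the long noncoding RNA MANCR, at least 18.1-fold (5.08 and 9.47), and RGS7, a regulator of G protein signalling, at least 3.87-fold (4.87 and 7.24). CYP24A1, which inactivates vitamin D, was at least 3.76-fold lower (4.56 and 7.20), and WDR62, a spindle pole protein, at least 3.43-fold (4.73 and 7.07). SGSH and VTN were detected on no other SW1736 array and BPIFB1 on 1 other, so these 3 passed the detection filter only through the 48 h arrays, and no p is given for them. The fit's adjusted p for the other 5 genes lay between 8.53e-10 and 1.47e-05. Some other genes named here were detected on part of a group, whose level is then partly background. At 0 h this was 1 of the 3 arrays for PDGFRB and IFI27 and 2 of the 3 for CLIC3, CDKN1C, GAA, HLA-DMA, HMOX1 and JUNB. At 48 h it was 1 of the 3 for HBEGF and 2 of the 3 for DEPDC1, PKMYT1, RBL1 and ATF3.

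**Figure D1:**
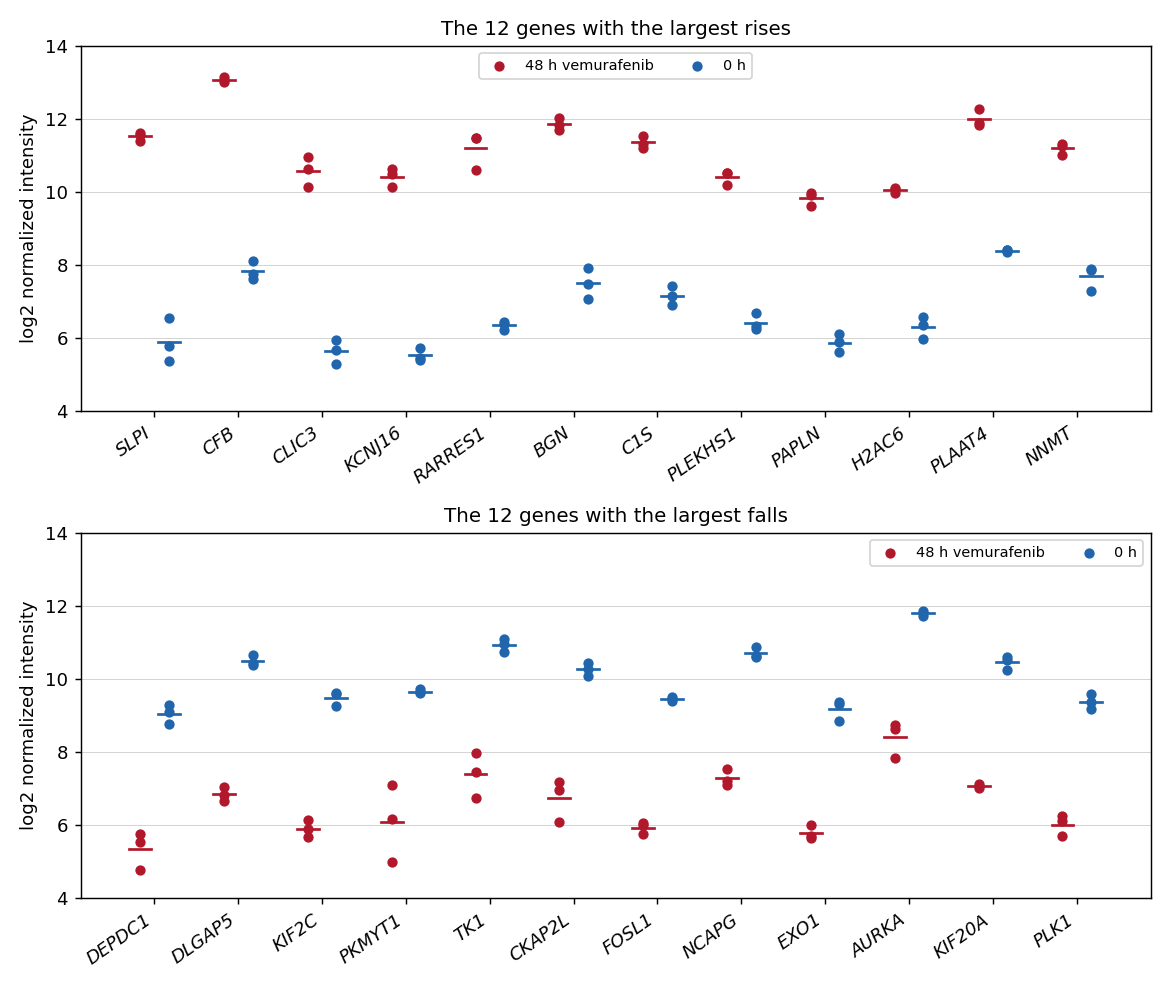
Log2 normalized intensity on each of the 3 arrays at 48 h of vemurafenib (red, left of each gene) and at 0 h (blue, right), with the mean as a bar, for the 12 largest rises (top) and the 12 largest falls (bottom) among detected genes. CFB reached 13.14, 13.07 and 13.01 at 48 h.

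The 12 largest falls among detected genes included kinases and motor proteins of mitosis. DLGAP5, a spindle protein, had levels of 6.82, 6.65 and 7.05 at 48 h, against 10.65, 10.45 and 10.40 at 0 h, 12.6-fold lower (-3.66 ± 0.18, adjusted p = 2.29e-09). KIF20A, a kinesin of cytokinesis, had levels of 7.07, 7.14 and 7.01 at 48 h and of 10.61, 10.24 and 10.52 at 0 h (-3.38 ± 0.19, adjusted p = 5.86e-09). The mitotic kinase AURKA fell by 10.6-fold and the mitotic kinase PLK1 by 10.3-fold. TK1, thymidine kinase, changed by -3.55 on the log2 scale, DEPDC1 by -3.70, the kinesin KIF2C by -3.58, PKMYT1, a kinase that inhibits CDK1, by -3.57, CKAP2L by -3.53, the condensin subunit NCAPG by -3.42 and the nuclease EXO1 by -3.40. The list of 12 also held FOSL1, a component of the transcription factor AP-1 and a target of ERK, with levels of 6.01, 6.05 and 5.75 at 48 h, against 9.45, 9.41 and 9.50 at 0 h.

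All 30 tested mitosis genes fell, with a median log2 change of -2.66 and a range of -3.40 to -1.89, beside 13.9% lower among all genes. At 6 h the median of the same genes had been 0.138, and against 6 h all 30 were lower at 48 h. In RNA from a whole culture, fewer cells in a phase and less of the RNA per cell cannot be told apart. CCNA2, cyclin A2, had levels of 6.71, 7.12 and 6.77 at 48 h, against 10.36, 10.31 and 9.91 at 0 h. Of 30 tested genes of S phase, many of them targets of the E2F transcription factors, 29 fell and none rose, with a median of -1.78. Of these 29, 2 passed the detection filter only through the 0 h arrays. RRM2, a subunit of ribonucleotide reductase, had levels of 5.76, 6.16 and 6.85 at 48 h, against 9.35, 9.62 and 9.73 at 0 h. The replication factors CDC45, GINS2 and CDT1 changed by -3.28 ± 0.18, -3.26 ± 0.19 and -3.25 ± 0.24 on the log2 scale (SE). These counts were 30 and 29 also when any single array at 48 h or 0 h was left out.

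The promoters of 2 S phase genes that fell are shown because both hold an E2F motif. They are RefSeq windows on GRCh38.p14, spanning the gene's start with most of their length upstream, written on the gene's strand at chr16:85688905-85689204 (minus strand) for GINS2 and chr16:88803539-88803838 (plus strand) for CDT1. Capitals mark the match to the motif on either strand.
GINS2: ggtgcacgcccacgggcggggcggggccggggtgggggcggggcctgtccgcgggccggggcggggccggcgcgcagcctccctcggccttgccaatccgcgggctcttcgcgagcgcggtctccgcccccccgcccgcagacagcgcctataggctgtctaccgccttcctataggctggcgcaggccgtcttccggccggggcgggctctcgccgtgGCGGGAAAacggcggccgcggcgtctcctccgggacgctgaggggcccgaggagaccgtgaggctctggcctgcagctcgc
CDT1: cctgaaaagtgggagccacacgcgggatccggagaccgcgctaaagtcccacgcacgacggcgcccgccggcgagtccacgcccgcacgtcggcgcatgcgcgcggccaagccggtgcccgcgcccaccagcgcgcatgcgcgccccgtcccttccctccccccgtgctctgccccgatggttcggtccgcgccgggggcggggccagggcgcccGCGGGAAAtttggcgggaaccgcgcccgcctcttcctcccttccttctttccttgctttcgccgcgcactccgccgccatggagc
The E2F motif was searched on both strands as TTTCCCGC, TTTGGCGC and TTTCGCGC. It was in 17 of the 27 S phase promoters in the table, 63%, against 4.78% of the promoters of all genes tested. The CHR motif of mitotic genes, TTTGAA, was in 17 of 25 mitosis promoters, 68%, against 10.1% of those of all genes tested. Both lists were chosen as known cell cycle genes, so these shares describe the lists and not the 48 h change. Among all genes that fell at 48 h the E2F motif was in 7.89% and CHR in 16.3%. Among those that rose the shares were 3.03% and 9.43%. The match is a description of the sequence and not of binding.

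Of 19 tested DNA repair genes 14 fell and 2 rose, beside 13.9% and 15.8% of all genes, at a median of -1.04. BRCA1 had levels of 6.50, 5.64 and 5.89 at 48 h, against 9.17, 9.12 and 9.22 at 0 h (-3.16 ± 0.28, adjusted p = 6.37e-07), and its second probe changed by -3.24. FANCI, of the crosslink repair pathway, changed by -2.48. The helicase BLM was detected on no 48 h array and was at least 3.33-fold lower. ATM, the kinase that signals double-strand breaks, rose by 1.19. The count that rose was 1 without array 1 or 2 at either time.

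Genes that drive or slow the cell cycle moved in both directions. Of 19 tested genes for D cyclins and their kinases, CDK inhibitors and other brakes on the cycle, 10 rose and 4 fell, beside 15.8% and 13.9% of all genes. MXD4, a MYC antagonist, had levels of 10.98, 10.72 and 10.39 at 48 h, against 7.87, 8.55 and 7.77 at 0 h, 6.19-fold higher. GAS1, a growth arrest gene, rose 6.18-fold, the CDK inhibitor CDKN1C 3.54-fold and the antiproliferative factor BTG1 3.06-fold. RBL1, of the retinoblastoma family, fell 6.52-fold and the CDK inhibitor CDKN2D 4.73-fold. CDKN1B, which binds and inhibits CDK2, had levels of 9.46, 9.55 and 10.32 at 48 h and of 9.38, 8.38 and 9.14 at 0 h, without overlap (0.81 ± 0.29, adjusted p = 0.0489). CDKN1A, the p53-induced CDK inhibitor, had 8.98, 9.13 and 8.61 at 48 h and 9.36, 9.68 and 9.38 at 0 h (-0.56 ± 0.20, adjusted p = 0.0455). Both calls were close to the threshold. For CDKN1B the adjusted p was 0.058 to 0.225 without array 2 or 3 at 48 h or array 2 or 3 at 0 h, and its change was 0.54 without array 3 at 48 h and 0.52 without array 2 at 0 h. The CDKN1B call was also lost under median scaling (adjusted p = 0.16), with no filter, with a filter over all 24 arrays, with the mean of probes, with only the 6 arrays at 48 h and 0 h, and with array weights. For CDKN1A it was 0.0647 to 0.171 without array 1 or 3 at 48 h or any single array at 0 h, and it was 0.0772 with only the 6 arrays and 0.059 with array weights. The count of the 19 genes that fell was 2 without array 3 at 48 h or array 1 at 0 h, and 6 rose when the arrays numbered 3 were left out together.

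Of 15 tested p53 targets 4 rose and 4 fell, beside 15.8% and 13.9% of all genes, with a median of -0.0263. TP53INP1, SESN1 and XPC rose by 2.11, 1.41 and 1.03. The count that fell was 1 without array 2 at 0 h and 2 without array 1 or 2 at 48 h or array 1 or 3 at 0 h. In the BCL2 family 1 of 14 rose and 2 fell, beside 15.8% and 13.9% of all genes. BMF, a BH3-only protein that promotes apoptosis, had levels of 7.41, 6.90 and 7.20 at 48 h, against 5.42, 6.02 and 6.00 at 0 h (1.36 ± 0.24, adjusted p = 0.000558). PMAIP1, another BH3-only gene, fell by 1.86-fold. The count that fell was 1 without array 2 or 3 at either time.

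**Figure D2:**
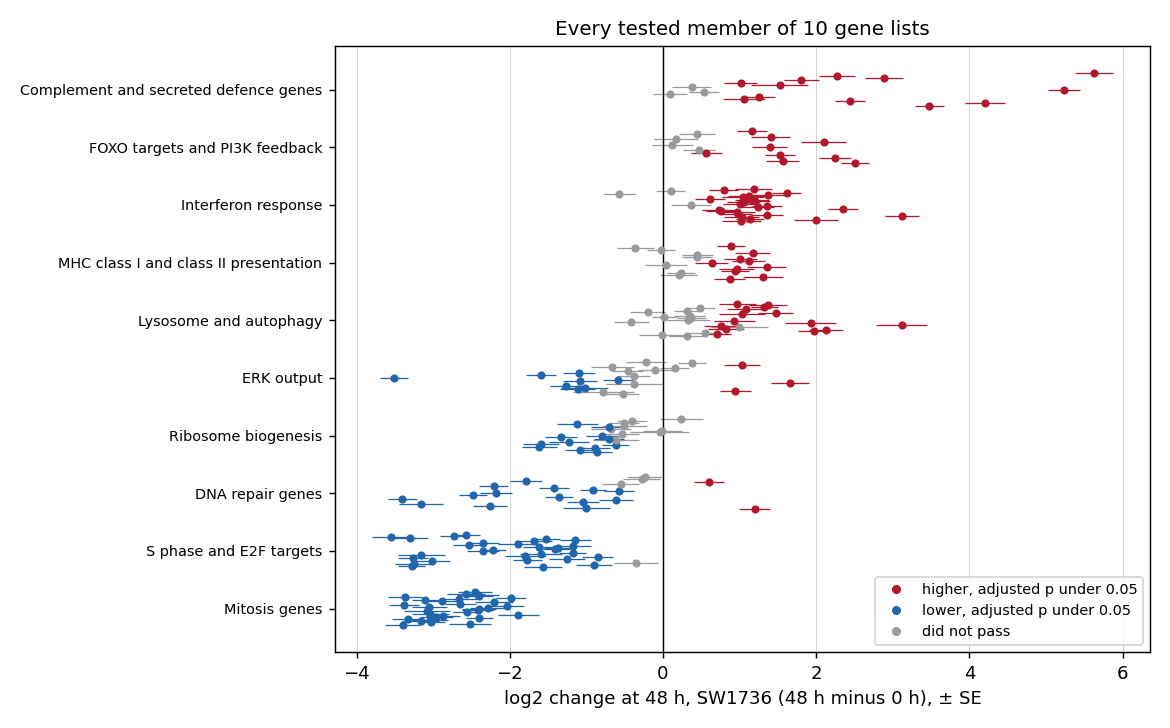
Log2 change at 48 h against 0 h in SW1736, with its SE, for every tested member of 10 gene lists, 1 point a gene. Red points passed the test upward, blue downward and grey did not pass, and the 30 mitosis genes all lie between -3.40 and -1.89.

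Most genes induced by ERK were low at 6 h, and as a list they had partly returned by 48 h. Of 21 tested ERK output genes, 18 were lower at 6 h than at 0 h and none was higher, beside 2.59% and 1.75% of all genes. At 48 h 8 were lower than at 0 h and 3 were higher, beside 13.9% and 15.8% of all genes. Against 6 h, 15 of the 21 were higher at 48 h and none was lower, beside 12% and 9.67%. Both times were set against the same 0 h arrays. The median log2 change of the list was -0.527 at 48 h and -1.85 at 6 h. Without single arrays 6 to 9 of the genes were lower at 48 h, and 3 were higher each time.

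The feedback inhibitors of the pathway took different positions. SPRY1, a Sprouty inhibitor of RAS signalling, had levels of 9.22, 9.59 and 9.34 at 48 h, above the 8.33, 8.15 and 8.58 at 0 h, 2.05-fold higher (adjusted p = 0.00385), and its mean at 6 h was 6.00. DUSP5, a nuclear ERK phosphatase, had levels of 9.94, 10.01 and 10.31 at 48 h, against 9.21, 8.93 and 9.29 at 0 h (0.94 ± 0.20, adjusted p = 0.00229). These 2 genes were higher than before treatment. SPRY2 had 11.41, 11.29 and 11.36 at 48 h and 11.11, 10.68 and 11.15 at 0 h (0.37 ± 0.18, adjusted p = 0.138). SPRY4 had 5.83, 6.37 and 6.66 at 48 h and 6.95, 6.32 and 6.25 at 0 h, and these groups overlap (-0.22 ± 0.26, adjusted p = 0.569); its other detected probes, each seen on 3 of the 6 arrays, changed by 0.48 and 0.23. Neither passed the test against 0 h. SPRY2 was higher than at 6 h, by 2.91 (adjusted p = 2.91e-08), while the SPRY4 probe was detected on no 6 h array, so no size is given for it.

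DUSP6, the cytoplasmic ERK phosphatase, remained below its untreated level, at 7.05, 7.08 and 6.89 at 48 h, against 8.05, 8.08 and 8.24 at 0 h (-1.12 ± 0.23, adjusted p = 0.00159), and was 1.62 above 6 h, where it was detected on 2 of the 3 arrays. EMP1, a membrane protein, had 8.79, 8.82 and 8.77 at 48 h and 10.00, 9.89 and 10.29 at 0 h, 1.35 above 6 h. MYC, the growth transcription factor, had 9.32, 9.49 and 9.56 at 48 h and 10.60, 10.65 and 10.40 at 0 h (-1.10 ± 0.20, adjusted p = 0.000721), and was 0.92 above 6 h. Each of these genes thus lay between its 6 h and its 0 h level. FOSL1 did not pass the test against 6 h (-0.10, adjusted p = 0.759), nor did LIF, a cytokine (0.30, adjusted p = 0.306), which was -1.60 against 0 h.

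EPHA4, an ephrin receptor, rose by 1.66 ± 0.25 at 48 h against 0 h. It had not been low at 6 h, with levels of 6.41, 6.45 and 6.76, against 5.87, 6.28 and 6.01 at 0 h. Its rise is thus no return. CCND1, cyclin D1, had 12.65, 12.70 and 12.79 at 48 h and 13.37, 13.50 and 12.85 at 0 h and did not pass (-0.53 ± 0.21, adjusted p = 0.0718). It did pass without array 3 at 0 h (-0.72, adjusted p = 0.023), under median scaling (-0.66, adjusted p = 0.0471), without background correction, in the authors' values, with all 24 arrays in 1 model and with a trended robust prior. EGR1, the immediate early factor, had 5.99, 6.09 and 6.59 at 48 h and 7.29, 7.50 and 6.93 at 0 h (-1.02 ± 0.31, adjusted p = 0.0192), with adjusted p-values of 0.054 to 0.0743 without array 1 or 2 at either time.

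**Figure D3:**
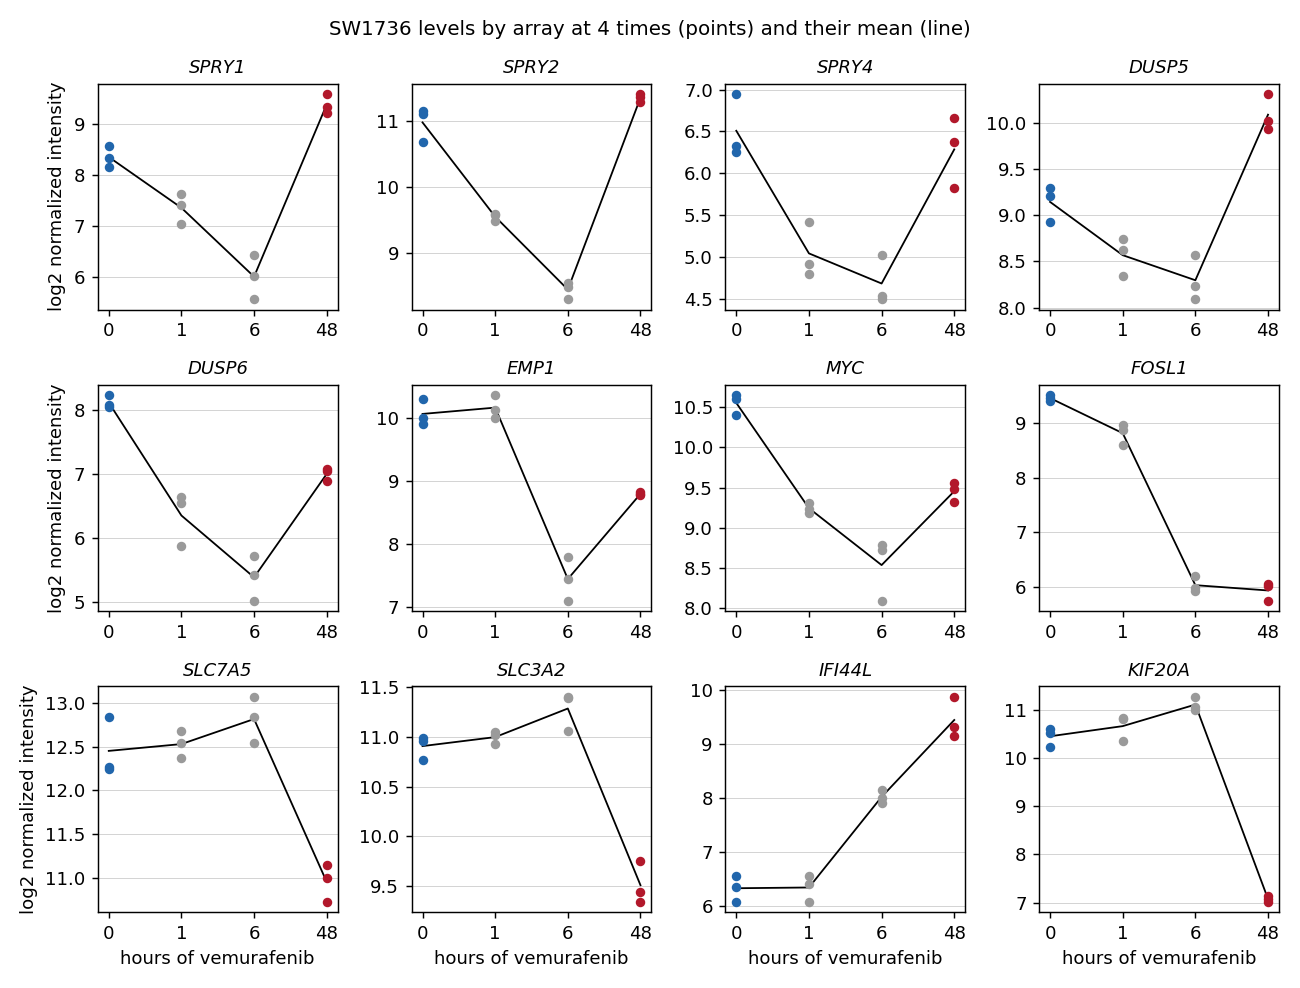
Log2 normalized intensity of 12 genes on each SW1736 array (points) at 0, 1, 6 and 48 h of vemurafenib, with the mean as a line; the axis spaces the times evenly. SPRY1 at 48 h lies above its 0 h arrays, DUSP6 and MYC lie between 6 h and 0 h, FOSL1 lies near its 6 h level, and KIF20A and SLC7A5 fall after 6 h.

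In the RAS, RAF, MEK and ERK cascade itself 2 of 13 tested genes rose and 2 fell, near the 15.8% and 13.9% of all genes, with a median of 0.0227. HRAS was lower at 8.93, 9.06 and 8.95 at 48 h, against 10.29, 10.49 and 10.34 at 0 h (-1.39 ± 0.21), by 1 probe, the second being detected on 1 of the 6 arrays. MAPK3, which encodes the kinase ERK1, rose by 0.85, a call lost under median scaling (0.63, adjusted p = 0.0656), where none of the 13 rose. Both counts were 1 without array 2 at 0 h, the higher count also without array 1 at 48 h or array 3 at 0 h, and the lower count also without array 3 at 48 h. Among 17 tested immediate early genes 3 rose and 5 fell, beside 15.8% and 13.9% of all genes, so the rises lay near the share of all genes. ATF3, a stress-induced factor, fell by 2.48-fold, and JUNB rose by 1.23, which was 0.80 (adjusted p = 0.0612) without array 3 at 0 h and 0.77 (adjusted p = 0.0867) without the arrays numbered 3. The count of immediate early genes that fell was 1 to 3 without any single array.

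Most ERBB receptor genes did not pass the test. ERBB3 had levels of 8.79, 8.95 and 8.33 at 48 h and of 8.50, 8.51 and 7.79 at 0 h, overlapping groups that did not pass the test (0.43 ± 0.24, adjusted p = 0.192). Its change at 6 h, 0.68, did not pass either (adjusted p = 0.13), and the second detected probe changed by -0.04 at 48 h. ERBB2 had 9.85, 9.60 and 9.20 at 48 h and 8.91, 9.17 and 8.89 at 0 h (0.56 ± 0.20, adjusted p = 0.0449). That call was lost without array 1 or 2 at 48 h or array 1 or 3 at 0 h, with adjusted p-values of 0.103 to 0.174, under median scaling (0.35, adjusted p = 0.321), with only the 6 arrays (adjusted p = 0.087) and without the arrays numbered 3 (adjusted p = 0.0573). EGFR changed by 0.16 ± 0.20 by the probe used (adjusted p = 0.603), and its second probe detected on all 6 arrays changed by 0.54. LRIG3, of a family of receptor regulators, rose by 1.32 ± 0.25 (adjusted p = 0.00103). Of 11 tested receptors and regulators 2 rose and none fell, near the 15.8% higher of all genes. The count that rose was 1 without array 1 or 2 at 48 h or array 1 or 3 at 0 h, and 1 fell without array 2 at 0 h.

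The 3 ERBB ligands that passed the detection filter, of 9 on the array, were lower, beside 13.9% lower among all genes. TGFA had levels of 7.79, 7.20 and 7.68 at 48 h, against 8.56, 8.45 and 8.58 at 0 h (-0.97 ± 0.23, adjusted p = 0.00475). HBEGF changed by -1.08 ± 0.30 and NRG1, the ligand of ERBB3, by -0.64 ± 0.20 (adjusted p = 0.0135 and 0.0254), while the second detected NRG1 probe changed by -1.88. HBEGF was detected on 1 of the 3 arrays at 48 h. HBEGF had an adjusted p of 0.0536 to 0.0603 without array 1 or 2 at 48 h or array 1 at 0 h, and NRG1 one of 0.0569 to 0.0996 without array 1 at 48 h or array 1 or 3 at 0 h and of 0.103 without the arrays numbered 3. Of the 3 ligands, 1 was lower without array 1 at 48 h or array 1 at 0 h. The corepressors CTBP1 and CTBP2, which shut down transcription with DNA-binding partners, changed by 0.18 ± 0.17 and -0.58 ± 0.23 and did not pass (adjusted p = 0.484 and 0.0677). CTBP2 did pass with all 24 arrays in 1 model (adjusted p = 0.0252), while its second probe, detected on all 6 arrays, changed by -0.16.

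Among other receptor kinases, PDGFRB, the receptor of platelet-derived growth factor B, had levels of 8.59, 8.74 and 8.77 at 48 h, against 5.26, 5.09 and 5.74 at 0 h (3.34 ± 0.21, adjusted p = 2.4e-08), a change set against a group in which it was detected on 1 of the 3 arrays. DDR1, a collagen receptor kinase, rose by 1.70 ± 0.18, with other probes at 0.61 and 0.58. AXL, the receptor of GAS6, had 8.98, 10.05 and 10.44 at 48 h and 11.22, 11.25 and 11.36 at 0 h, lower on every array but spread over more than 1 log2 unit among the 48 h arrays. Of the 11 tested receptors in this group 2 rose and 1 fell, near the 15.8% and 13.9% of all genes.

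FOXO transcription factors are held out of the nucleus by PI3K and AKT signalling and turn on inhibitors of growth. Of 13 tested FOXO targets and PI3K feedback genes 9 rose and none fell, at a median of 1.39, beside 15.8% higher among all genes. BCL6, a transcriptional repressor, had levels of 10.27, 10.58 and 10.41 at 48 h, against 7.86, 7.95 and 7.93 at 0 h (2.50 ± 0.18, adjusted p = 6.96e-08). CITED2, a coactivator partner, rose by 2.25, PIK3IP1, an inhibitor of PI3K, by 2.10, and CCNG2, cyclin G2, by 1.56, with a further CCNG2 probe at 0.39. Under median scaling 8 of the 13 rose. The median was 0.52 with no detection filter and 0.865 with a filter over all 24 arrays, where more members entered the list.

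Interferon response genes rose together. Of 27 tested, 24 rose and none fell, beside 15.8% and 13.9% of all genes, with a median of 1.05 and a range of -0.57 to 3.11. IFI44L had levels of 9.15, 9.88 and 9.31 at 48 h, against 6.36, 6.56 and 6.08 at 0 h, 8.66-fold higher (3.11 ± 0.22, adjusted p = 6.01e-08), and its second probe changed by 1.07. IFITM1, a membrane protein that blocks virus entry, had 12.06, 12.21 and 11.64 at 48 h and 9.48, 9.82 and 9.55 at 0 h (2.35 ± 0.19, adjusted p = 2.58e-07). It has close relatives among the IFITM genes, and how far its probe reads them was not tested. IFI27 rose by 2.00, against 0 h arrays of which 1 of 3 detected it. OASL, of the oligoadenylate synthetase family, rose by 1.61 and had changed by 1.74 at 6 h against the same 0 h arrays. At 6 h 9 of the 27 had been higher, beside 1.75% of all genes. With single arrays left out 21 to 24 rose, and with median scaling or without the arrays numbered 3 it was 20.

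The promoters of IFI44L and IFITM1 are shown because both hold the interferon response element core more than once. The windows are as above, at chr1:78620198-78620497 and chr11:313790-314089, both on the plus strand, with 2 matches each in capitals.
IFI44L: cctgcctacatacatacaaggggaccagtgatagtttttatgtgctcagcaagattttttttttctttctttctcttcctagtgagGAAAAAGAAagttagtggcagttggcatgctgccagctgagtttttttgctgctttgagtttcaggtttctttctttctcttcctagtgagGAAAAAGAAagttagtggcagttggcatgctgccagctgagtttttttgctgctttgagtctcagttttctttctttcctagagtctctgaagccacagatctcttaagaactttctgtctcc
IFITM1: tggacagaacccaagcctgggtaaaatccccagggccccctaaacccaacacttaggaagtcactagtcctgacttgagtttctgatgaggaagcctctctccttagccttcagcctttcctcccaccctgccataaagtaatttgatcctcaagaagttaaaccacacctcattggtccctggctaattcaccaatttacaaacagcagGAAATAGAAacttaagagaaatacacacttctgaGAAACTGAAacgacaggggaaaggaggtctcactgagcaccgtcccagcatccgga
The core was searched on both strands as GAAANNGAA. It was in 15 of the 23 interferon response promoters in the table, 65.2%, against 6.44% of the promoters of all genes tested. The list was chosen as known interferon response genes, so this share describes the list and not the 48 h change. Among all genes that rose at 48 h the core was in 8.09%, and among those that fell in 6.57%.

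Of 17 tested antigen presentation genes 10 rose, none fell and 7 did not pass, beside 15.8% higher among all genes, at a median of 0.871, which was 0.446 with no detection filter. CD74, the invariant chain of class II molecules, had levels of 8.49, 8.42 and 8.31 at 48 h, against 7.67, 7.04 and 6.59 at 0 h (1.31 ± 0.26, adjusted p = 0.00124). HLA-DMA, which loads peptide on class II molecules, rose by 1.35, and the class I gene HLA-F by 1.12. PSMB9, a subunit of the immunoproteasome, rose by 1.17 by the probe used, with its second probe at 0.18. HLA genes resemble each other, so single members are uncertain.

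Of 15 tested complement and secreted defence genes 12 rose and none fell, beside 15.8% and 13.9% of all genes. SLPI, CFB, C1S and C1R above led the rises. However, 4 of the 12 passed the detection filter only through the 48 h arrays and so had to differ. The median change was 1.8, and it was 0.888 without background correction and 0.887 in the authors' values. Single arrays left out gave 12 or 13 rises. CD14, a coreceptor for bacterial lipopolysaccharide, had levels of 8.90, 8.83 and 9.08 at 48 h, against 6.64, 7.55 and 6.69 at 0 h (1.98 ± 0.23, adjusted p = 8.94e-06). It was the only rise among 3 tested genes of the 14 blood and endothelial markers on the array.

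Among 17 tested genes for cytokines and other NF-kB targets there were 5 falls and 2 rises, beside 13.9% and 15.8% of all genes, and 1 of the rises passed the detection filter only through the 48 h arrays. The median was -0.52, and it was -0.315 without background correction, -0.313 in the authors' values, -0.288 with a filter over all 24 arrays, -0.324 without the arrays numbered 3 and -0.0566 with no detection filter. IL1B had levels of 5.36, 6.20 and 6.21 at 48 h, against 8.85, 7.92 and 8.56 at 0 h (-2.52 ± 0.27, adjusted p = 3.51e-06). IL1A was detected on no 48 h array and was at least 2.17-fold lower. CXCL8, a neutrophil chemokine, fell 3.26-fold, and IL6 fell 2.28-fold, with levels of 9.76, 10.13 and 9.41 at 48 h, against 11.03, 10.91 and 10.92 at 0 h. The count that rose was 1 without array 1 or 2 at 48 h or array 1 or 3 at 0 h.

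**Figure D4:**
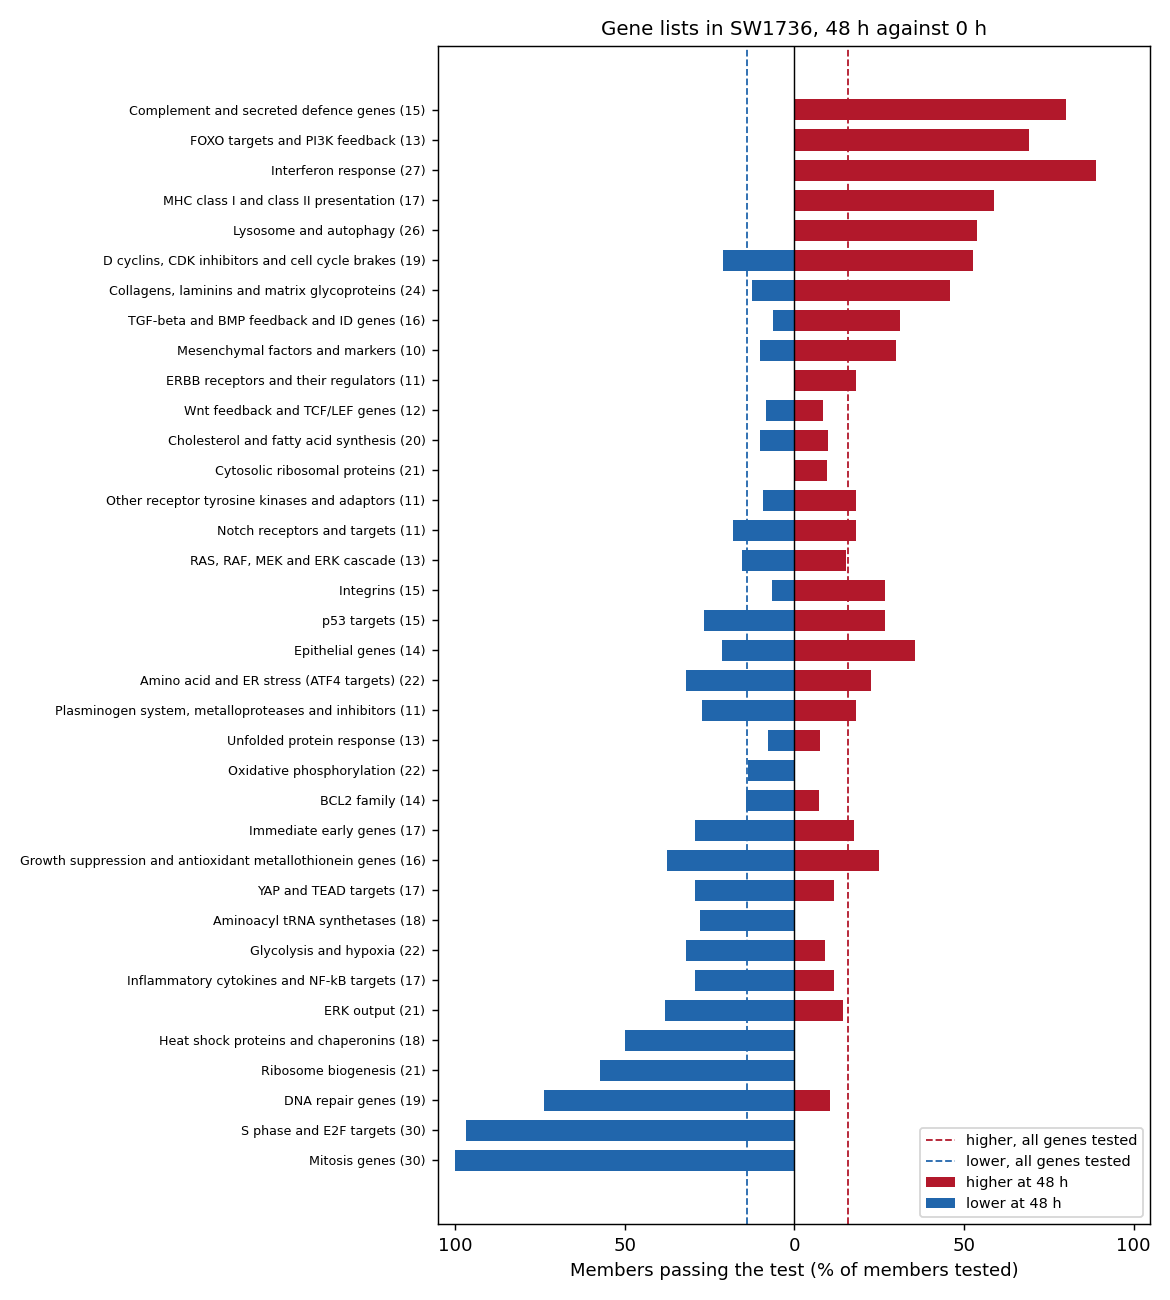
Share of tested members that passed the test upward (red, right) and downward (blue, left) at 48 h against 0 h, for the lists with 10 or more tested members (number in parentheses), ordered by median change. Dashed lines mark the shares of all genes tested, 15.8% higher and 13.9% lower.

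Targets of the stress factor ATF4, among them amino acid transport and synthesis genes, were higher as a list at 6 h but not at 48 h. The median log2 change of the list against the same 0 h arrays was 0.688 at 6 h and -0.0405 at 48 h. Of 22 tested 10 were higher at 6 h and none lower, beside 1.75% and 2.59% of all genes. At 48 h 5 were higher and 7 lower than at 0 h, beside 15.8% and 13.9% of all genes. Against 6 h 14 were lower at 48 h and none was higher, beside 9.67% and 12% of all genes. SLC7A5, the light chain of the large neutral amino acid transporter, had levels of 10.72, 11.14 and 10.99 at 48 h, against 12.27, 12.84 and 12.25 at 0 h (-1.50 ± 0.22, adjusted p = 8.41e-05). Its partner chain SLC3A2 had 9.44, 9.34 and 9.75 at 48 h and 10.97, 10.99 and 10.77 at 0 h (-1.40 ± 0.19, adjusted p = 3.52e-05). The arginine transporter SLC7A1 fell 2.27-fold, and PHGDH, the first enzyme of serine synthesis, 2.18-fold. NUPR1 and DDIT4, an inhibitor of mTORC1, rose 5.04-fold and 4.86-fold. CTH, of cysteine synthesis, rose by 1.34 by the probe used, with other probes at 0.53 and -0.13, and was -1.21 against 6 h. The count higher at 48 h was 3 without array 1 at 48 h and under median scaling.

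Genes of ribosome assembly fell, with 12 of 21 tested lower and none higher, beside 13.9% and 15.8% of all genes, at a median of -0.699. MRTO4, an assembly factor of the large subunit, had levels of 7.48, 8.14 and 7.85 at 48 h, against 9.32, 9.31 and 9.67 at 0 h. NOLC1, NOP56 and NOP14, nucleolar factors, changed by -1.59, -1.33 and -1.23. Of 21 ribosomal protein genes 2 rose and none fell, beside 15.8% and 13.9% of all genes, at a median of 0.0882. Of the 2, RPL13 changed by 0.90 by the probe used and by -1.02 by its other probe, detected on all 6 arrays. The count that rose was 1 without array 2 at 48 h or array 1 or 2 at 0 h. Among 18 heat shock proteins and chaperonins 9 fell and none rose, beside 13.9% and 15.8% of all genes. The chaperonin subunit TCP1 changed by -1.35 ± 0.19, with a further detected probe at -0.41, and HSPD1 and HSPH1 changed by -1.02 and -1.01. Of 18 aminoacyl tRNA synthetases 5 fell, beside 13.9% of all genes, and this count was 1 to 3 without any single array.

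Glycolysis genes were lower in 7 of 22 cases and higher in 2, beside 13.9% and 15.8% of all genes. The enolase genes ENO2 and ENO1 changed by -1.28 and -1.02, and PGAM1, phosphoglycerate mutase, by -1.18. SLC2A3, a glucose transporter, had levels of 9.36, 9.56 and 9.40 at 48 h, against 8.23, 8.09 and 8.19 at 0 h, higher by 1.27, after -1.33 at 6 h against the same 0 h arrays. The count that fell was 4 without array 2 at 48 h, and the count that rose was 1 without array 3 at 48 h or array 1 at 0 h. Lysosome and autophagy genes rose in 14 of 26 cases and fell in none, beside 15.8% and 13.9% of all genes, at a median of 0.787. GAA, the lysosomal glucosidase, had levels of 8.77, 8.42 and 8.91 at 48 h, against 5.17, 5.61 and 5.97 at 0 h, 8.66-fold higher. The cathepsins CTSF and CTSD rose 4.37-fold and 3.92-fold, and GABARAPL1, an autophagosome protein, 3.8-fold. Under median scaling 10 of the 26 rose. HMOX1, haem oxygenase, had levels of 8.05, 7.71 and 8.72 at 48 h, against 5.02, 6.30 and 7.20 at 0 h, where it was detected on 2 of the 3 arrays and spread over more than 2 log2 units (1.99 ± 0.42, adjusted p = 0.00213). In its list of antioxidant and metallothionein genes 4 of 16 rose and 6 fell, beside 15.8% and 13.9% of all genes.

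Of 24 tested genes of collagens, laminins and other matrix proteins 11 rose and 3 fell, beside 15.8% and 13.9% of all genes. LAMA5, a laminin chain of basement membranes, had levels of 12.09, 12.59 and 12.34 at 48 h, against 10.10, 10.06 and 9.65 at 0 h (2.40 ± 0.20, adjusted p = 3.43e-07). SPARC, a collagen-binding glycoprotein, rose 2.88-fold, and the collagen chains COL8A1 and COL1A2 rose 2.69-fold and 2.57-fold, with a further COL8A1 probe at 0.51. LAMB3, a chain of another laminin, fell 3.23-fold and THBS1, thrombospondin, 2.76-fold. MMP2, a gelatinase, was detected on no 0 h array and was at least 2.95-fold higher. ADAMTS1, a secreted metalloprotease, and PLAUR and PLAT, of the plasminogen system, changed by -2.22, -1.41 and -0.89, and in their list of 11 tested genes 2 rose and 3 fell, beside 15.8% and 13.9% of all genes. One of the 2 is MMP2, which passed the detection filter only through the 48 h arrays. The count that rose was 4 without array 2 at 48 h and 1 without array 3 at 0 h.

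Among 15 integrins 4 rose and 1 fell, beside 15.8% and 13.9% of all genes. ITGAV had levels of 11.27, 11.16 and 10.96 at 48 h, against 10.01, 9.14 and 9.87 at 0 h, and its partner chain ITGB3 had 7.34, 7.05 and 7.69 at 48 h and 6.11, 5.52 and 6.12 at 0 h, higher by 1.46 and 1.44. ITGA6, a laminin receptor chain, was lower by 3.49-fold. Of 17 tested genes in a list of the coactivator YAP, its partners and its targets, 5 fell and 2 rose, beside 13.9% and 15.8% of all genes. Of the falls, 1 passed the detection filter only through the 0 h arrays. The rises were those of YAP1, the gene of the coactivator itself, at 0.90 and of ARHGEF17 at 0.84. CCN1, a secreted matrix protein, had levels of 6.99, 7.86 and 7.63 at 48 h, against 9.89, 10.23 and 9.74 at 0 h, and F3, tissue factor, changed by -1.37. The count of genes in the YAP list that rose was 0 without array 2 at 0 h and 1 without array 2 or 3 at 48 h or array 3 at 0 h, and 3 fell when the arrays numbered 3 were left out together.

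The thyroid list gave 3 rises among 7 tested genes and no fall, beside 15.8% and 13.9% of all genes. Without single arrays 2 or 3 rose, and 2 did under median scaling or without the arrays numbered 3. DIO2, the deiodinase that activates thyroid hormone, had levels of 7.04, 7.27 and 6.93 at 48 h, against 4.78, 4.96 and 4.59 at 0 h. By this probe it was not detected at 0 h and was at least 3.33-fold higher, while its second probe, detected on 2 of the 6 arrays, changed by -0.10. THRA, a thyroid hormone receptor, rose by 1.32. PAX8 had 10.72, 10.77 and 11.06 at 48 h and 10.53, 10.77 and 10.52 at 0 h, and FOXE1 had 6.48, 7.03 and 6.91 at 48 h and 6.90, 7.19 and 6.76 at 0 h. Both sets overlap, and neither gene passed the test (0.24 ± 0.19 and -0.14 ± 0.24, adjusted p = 0.378 and 0.689).

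Epithelial genes moved both ways, with 5 of 14 tested higher and 3 lower, beside 15.8% and 13.9% of all genes. JUP, plakoglobin of cell junctions, rose 2.57-fold and the claudin CLDN7 1.85-fold, while the keratin KRT7 fell 2.13-fold and the transcription factor OVOL2 1.98-fold. Of 10 mesenchymal genes 3 rose and 1 fell, beside 15.8% and 13.9% of all genes. S100A4 rose by 1.28, and TAGLN, an actin-binding protein, had levels of 11.08, 10.82 and 10.71 at 48 h, against 12.68, 12.95 and 12.46 at 0 h (-1.82 ± 0.20, adjusted p = 5.21e-06). The count of epithelial rises was 3 without array 1 at 48 h and 2 under median scaling or without the arrays numbered 3, and that of mesenchymal rises was 1 without array 3 at 48 h or array 2 at 0 h. No melanocyte gene of 4 tested passed the test, at changes between -0.29 and 0.12.

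In the TGF-beta and BMP list 5 of 16 rose and 1 fell, beside 15.8% and 13.9% of all genes. SMAD6, an inhibitor of BMP signalling, rose 3.57-fold and the ligand BMP2 3.48-fold. The count that rose was 3 without array 1 at 48 h or array 1 at 0 h, and the fall was lost without array 1 or 2 at 48 h or array 1 at 0 h. DKK1, a secreted Wnt inhibitor, had levels of 10.27, 10.15 and 9.75 at 48 h, against 11.62, 11.52 and 11.36 at 0 h. Among 12 Wnt genes it was the only fall, with 1 rise, beside 13.9% and 15.8% of all genes. JAG2, a Notch ligand, rose by 1.42, and HES4 fell by 2.97-fold, among 2 rises and 2 falls in 11 Notch genes, near the 15.8% and 13.9% of all genes. Genes of cholesterol and fatty acid synthesis (2 rises and 2 falls of 20), the unfolded protein response (1 and 1 of 13) and oxidative phosphorylation (0 and 3 of 22) lay near or below the shares of all genes. In the Wnt, Notch, cholesterol, unfolded protein and oxidative phosphorylation lists, the counts in either direction were 0 to 3 with any single array left out.

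The same contrast in SKMEL28 shows which of these changes differed between the lines. The difference of the 48 h change, SW1736 minus SKMEL28, passed the test for 2507 genes, 21.4%, of which 1397 were higher, 11.9%, and 1110 lower, 9.48%. Of the 30 mitosis genes 20 differed, and all 20 had fallen less in SW1736, with medians of -2.66 in SW1736 and -3.97 in SKMEL28. Of these 20, 9 were detected on all 6 SKMEL28 arrays at 48 h and 0 h, and none was undetected on all. NCAPG, which is not in that list, changed by -3.42 in SW1736 and by -5.43 in SKMEL28, and KIF20A by -3.38 and -4.90, where 1 of the 3 SKMEL28 arrays at 48 h detected it. BRCA1 fell more in SW1736, at -3.16 in SW1736 and -0.59 in SKMEL28.

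Of the 21 ERK output genes 13 were higher in the difference and 2 lower, beside 11.9% and 9.48% of all genes. The medians of the 21 were -0.527 in SW1736 and -1.27 in SKMEL28. DUSP6 changed by -1.12 in SW1736 and by -4.31 in SKMEL28, a difference of 3.20 (adjusted p = 3.45e-08). SPRY4 changed by -0.22 in SW1736 and -3.33 in SKMEL28, SPRY2 by 0.37 and -2.30, and SPRY1 by 1.03 and -1.54. EMP1 differed the other way, at -1.27 in SW1736 and 0.85 in SKMEL28.

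Of the 27 interferon response genes 19 differed, all higher in SW1736, beside 11.9% higher in the difference among all genes. The medians of the 27 were 1.05 in SW1736 and 0.00571 in SKMEL28. Of these 19, 13 were detected on all 6 SKMEL28 arrays at 48 h and 0 h, and 3 on none. Of the 15 complement and defence genes 10 differed, all higher in SW1736, beside the same 11.9%. Genes entered this test by detection on SW1736 arrays. Of the 15, 4 did so only through the 48 h arrays, which favours a higher difference for those 4. None of the 10 was detected on all 6 of those arrays. Of the 10, 5 were detected on none of them, so that a change there could not be seen. SLPI was among these 5, and CFB was detected on 1 of the 6 arrays. NNMT, detected on 1 of the 3 SKMEL28 arrays at 48 h, changed by 3.51 in SW1736 and by -2.97 in SKMEL28, and ITGB3 by 1.44 and -3.22. CXCL8 changed by -1.71 in SW1736 and was detected on no SKMEL28 array at 48 h. PLAUR changed by -1.41 in SW1736 and -3.50 in SKMEL28, and SLC7A5 by -1.50 and 0.81. For H2AC6 and LAMA5 the difference did not pass the test (-0.31 and -0.37, adjusted p = 0.437 and 0.27).

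**Figure D5:**
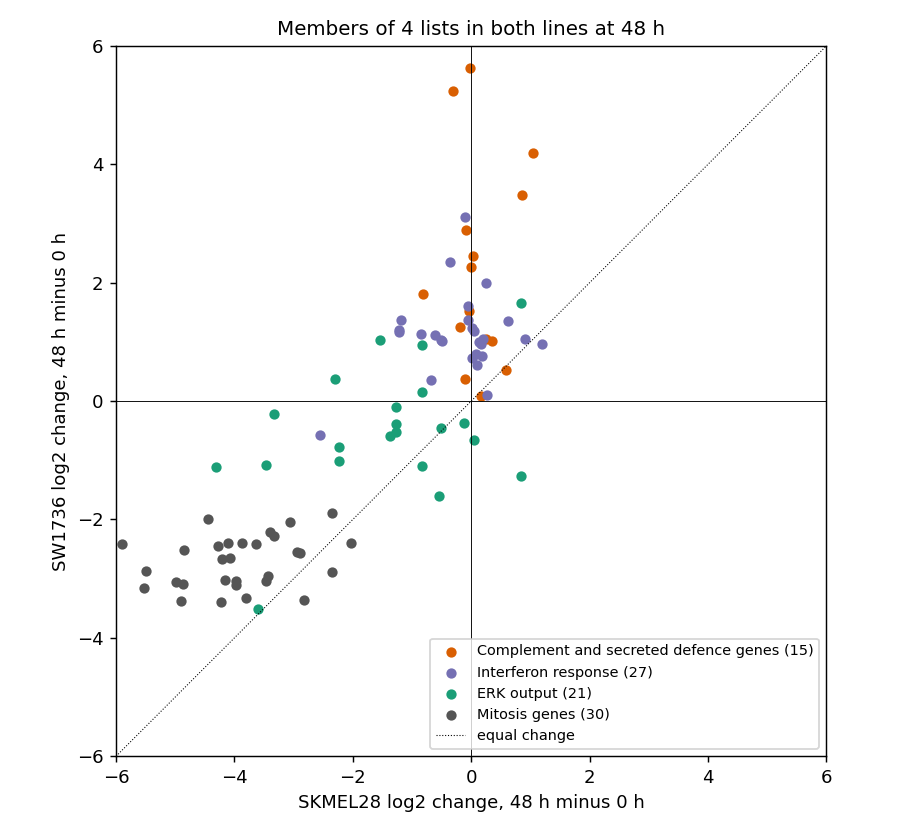
Log2 change at 48 h against 0 h in SW1736 (vertical axis) and in SKMEL28 (horizontal axis) for the tested members of 4 lists, 1 point a gene. Most mitosis and ERK output genes lie above the dotted line of equal change, and SLPI, at 5.63 in SW1736 and -0.03 in SKMEL28, lies highest.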

How the data were processed

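Total RNA of SW1736 and SKMEL28 cells at 0, 1, 6 and 48 h (3 arrays each, 24 in all) was measured on Illumina bead arrays. The authors deposited raw probe intensities and detection p-values, and, separately, log2 values, which per the submitters' processing notes involved Partek. How these log2 values were made is not given in the sources used here. Each of the authors' log2 columns matched its own array's intensity best. Here the deposited intensities were background-corrected (limma 3.58.1 in R 4.3.3, normexp on the detection p-values, offset 16), quantile-normalized over all 24 arrays and put on the log2 scale. Of 47231 probes 30113 had 1 gene symbol in the platform annotation, 8 had several and 17110 had none, and 30074 matched a current RefSeq gene. Probes detected (p under 0.05) on at least 3 of the 12 SW1736 arrays were kept, and each gene was represented by its brightest kept probe over those arrays, which gave 11711 genes. The slides of the arrays are not given in the sources used here.

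The main test was limma's moderated test on the 12 SW1736 arrays with 4 group means (8 residual and 7.7 prior degrees of freedom) and Benjamini-Hochberg adjustment over all 11711 genes. The SKMEL28 arrays were left out of it because they were less variable (median SD 0.165, against 0.285 in SW1736). The difference between lines came from a model of all 24 arrays, which pools the spread of both lines; used for 48 h against 0 h, that model gave 4801 calls against 3479. Genes named were the 12 largest rises and falls, up to 4 bounds each way, up to 4 of the largest changes each way in a list, and fixed genes of the ERK, ERBB and thyroid systems. The 12 each way were taken from genes past the threshold, detected on most arrays of both groups, whose groups do not overlap. CDT1 is named for its promoter. An at least N-fold value sets the detected group's mean against the lowest detected signal. The members and lists were chosen with earlier results of these data known. Alternatives covered background, scaling, filter, probe choice, thresholds, model, block and leaving out arrays. The number of arrays limits the precision. Figures were drawn with matplotlib 3.10.9 in Python 3.11.15.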

Additional observations from a re-analysis of the deposited data

Results flagged for a closer look

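The following genes changed differently at 48 h in SW1736 and in SKMEL28, by the test of the difference itself (limma on all 24 arrays, adjusted p under 0.05). Each value is the log2 change in SW1736 minus that in SKMEL28. The largest positive differences among the genes named were NNMT at 6.47, SLPI at 5.65, CFB at 5.54 and ITGB3 at 4.66. The receptor PDGFRB differed by 3.60, and the interferon response genes IFI44L and IFITM1 by 3.21 and 2.71. SLPI, PDGFRB and IFI44L were detected on none of the 6 SKMEL28 arrays at 48 h and 0 h, and CFB and IFITM1 on 1. In SKMEL28 CXCL8 was detected on no array at 48 h, SMAD6 on none at 0 h, and NNMT and KIF20A on 1 of 3 at 48 h, so these differences are set against groups at or near background. The ERK feedback genes DUSP6, SPRY4, SPRY2 and SPRY1 differed by 3.20, 3.11, 2.68 and 2.57. CXCL8, PLAUR and DKK1, which fell in SW1736, differed by 2.68, 2.08 and 1.65, and NCAPG and KIF20A by 2.02 and 1.52, all having fallen less in SW1736 than in SKMEL28.

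Negative differences were seen for MANCR at -4.26, which was detected on none of those 6 SKMEL28 arrays, and BRCA1 at -2.57. The amino acid transporter chains SLC7A5 and SLC3A2 differed by -2.31 and -2.26, TAGLN, also detected on none of them, by -2.13 and EMP1 by -2.11. SMAD6, which rose in both lines, differed by -1.69. The adjusted p-values of these 23 differences lay between 8.06e-13 and 0.000145.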

How the results depend on the processing

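The count of genes that differed between 48 h and 0 h, 3479, was 1584 with a 2-fold minimum and 2108 at an adjusted p under 0.01. Leaving out single arrays gave 2799 to 3046, and leaving out the arrays numbered 3 together gave 2575. The counts against 6 h (1698 to 2929, main 2535) and between lines (1704 to 2799, main 2507) stayed within 1.5 times. The leave-outs for these comparisons were chosen after seeing the data. With the replicate block the main count was 3675 and with a random replicate block 3637. Arrays with the same number correlated in their deviations at 0.0810, 0.0212 and 0.162. Each 48 h array did so best with its own number, while 0 h array 2 did so best with 48 h array 1. These values do not settle whether arrays of the same number belong together, and the main test used no block. The block added a call for CTBP2 (adjusted p = 0.0273). Of 143 named genes past the threshold 135 kept the call and the direction under every alternative other than the 2 stricter thresholds. The 135 include SGSH, VTN, BPIFB1 and MMP2, which passed the detection filter only through the 48 h arrays. Their calls were favoured by the filter and do not count as stable results. Sizes depend on background correction for dim genes: without it, and likewise in the authors' values, 42 of the 143 changes were smaller by over 1.5 times, and with the mean of probes 6 were. Changes that turned direction, none of them past the threshold, were SPRY4 (0.16 with the mean of probes, -0.41 to 0.0054 without single arrays), EGFR (-0.018) and CTBP1 (-0.050) under median scaling, and FOXE1 (-0.26 to 0.019 without single arrays). The differences between lines of H2AC6 and LAMA5 were 0.18 and 0.095 without background correction and 0.18 and 0.10 in the authors' values. The cause was not tested.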
